A study of Rattus norvegicus with 29 samples.

Results

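This account describes 150 transcripts whose level in primary rat renal proximal tubule epithelial cells was low after 24 h of TCDD (2,3,7,8-tetrachlorodibenzodioxin) and stayed close to control after 24 h of each of 3 other compounds. They were taken from 28420 measured transcripts by a rule on the deposited TPM values, which scale the reads of a transcript to its length and to the whole library. The rule uses L, the log2 of the treated group mean plus 1 over the control group mean plus 1 at 24 h. It kept transcripts with a mean of 1 to 500 TPM over the 5 control libraries, an L of -1.2 or lower with TCDD, and an L within 0.5 of 0 with acetaminophen, gentamicin and trichloroethylene. Of 13730 transcripts in that control window, 2720 reached the TCDD limit, 354 of these met the whole rule, and the 150 with the lowest TCDD L were taken.

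RNA was sequenced in 29 libraries from 10 groups. Cells were labelled control or had received the analgesic acetaminophen, the antibiotic gentamicin, TCDD or the solvent trichloroethylene, each for 6 h or 24 h. Every group had 3 libraries apart from control at 6 h, where 2 were used (replicates 2 and 3). The sources used here do not give doses, vehicles, strain or age. No label says whether the replicates are different animals or cultures, so a p-value here reflects the spread of these libraries, which may be technical. Library totals ran from 8243698 to 11446612 estimated counts, and in bulk RNA fewer cells of a type and less RNA per cell cannot be told apart.

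Proximal tubule cells line the first segment of the nephron, where they reabsorb most filtered solutes and take up and metabolise foreign compounds. TCDD is a potent ligand of the aryl hydrocarbon receptor, a transcription factor that moves to the nucleus when bound, pairs with ARNT and drives genes of xenobiotic metabolism such as those of the cytochrome P450 family 1. Lowered transcripts are a less studied side of that response than induced ones. The deposited tables list Ensembl transcript identifiers without gene names, and the reference table matched 0 of the 150. Gene roles and sequences are therefore left out, and the labelled cell type could not be checked against its markers. The transcripts are described as a set, and 4 of them by identifier.

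The values that chose the transcripts are given first, as a description. TCDD L ran from -3.18 to -1.57 with a median of -1.83, beside a median of -0.40 over the 13730 transcripts of the control window. At the median transcript this leaves 28.1% of the control value on the TPM + 1 scale. An L of -2 or lower was reached by 44 of the 150 transcripts, and -2.5 or lower by 11. The lowest L came from a transcript at a mean of 0.23 TPM with TCDD and 10.2 TPM in control at 24 h. Its estimated counts were not whole in every library. The edge of the set fell in a dense stretch: the last transcript taken had an L of -1.573 and the first one left out -1.571. For the 3 other compounds the largest distance from 0 was 0.496 with acetaminophen, 0.4998 with gentamicin and 0.496 with trichloroethylene, and the nearest transcripts kept out by one of these limits alone stood at 0.501, 0.5001 and 0.504. In 70 of the 150, L with at least 1 of those compounds was 0.4 or more from 0, so the set reaches up to its own limits.

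The set lay at moderate levels. Mean control TPM ran from 3.49 to 467 with a median of 25.7, beside 16.8 over the control window. There were 11 transcripts above 100 TPM and 17 under 10 TPM. The median of the 150 transcripts was 30.7, 31.0 and 25.3 TPM in the 3 control libraries at 24 h and 7.39, 5.19 and 8.73 TPM in the 3 TCDD libraries at 24 h. In the 26 libraries outside TCDD at 24 h that median stayed between 21.7 and 32.0 TPM. The 3 TCDD libraries of 24 h thus stood below all others, which the rule requires of their mean against control.

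**Figure D1:**
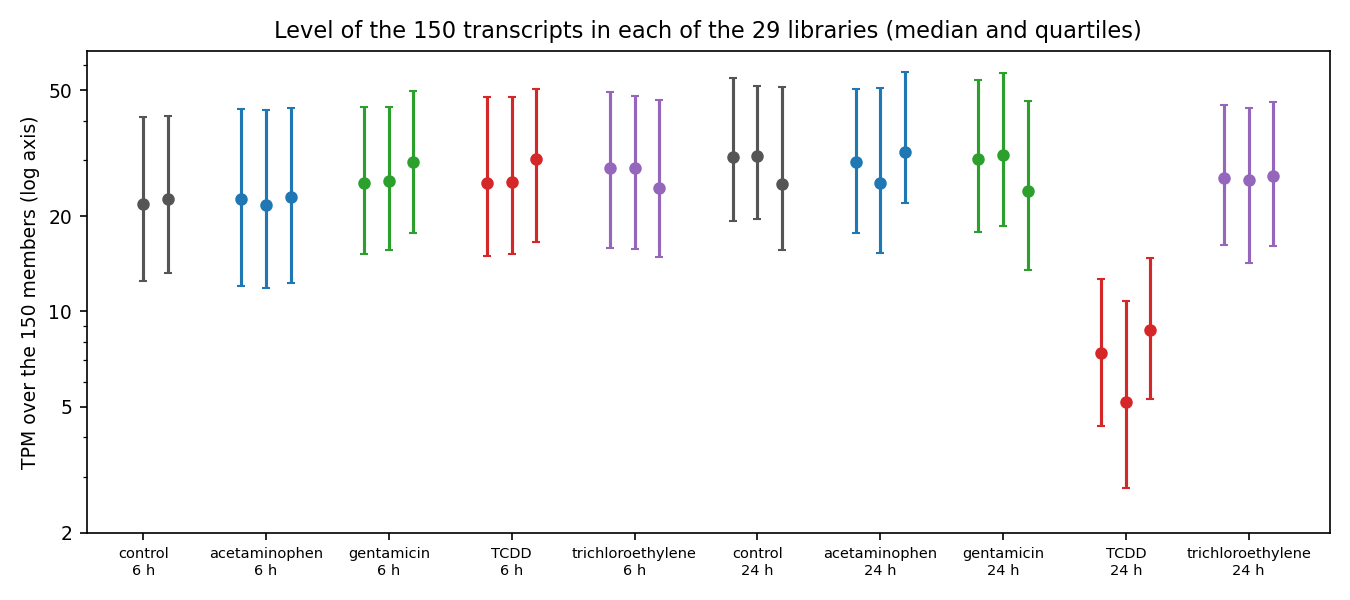
Each point is the median TPM (log axis) of the 150 transcripts in 1 library, and the bar spans their quartiles, with libraries ordered by group and replicate. The 3 TCDD libraries of 24 h sit at 5.19 to 8.73 TPM, and the 26 others between 21.7 and 32.0 TPM.

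The summed level of the set was 1579 ± 281 TPM with TCDD at 24 h (SD, n = 3) and 6396 ± 310 TPM in the control of that time (n = 3). It was 6377 ± 675 TPM with acetaminophen, 6075 ± 566 TPM with gentamicin and 5617 ± 145 TPM with trichloroethylene at 24 h (n = 3 each). At 6 h the sum was 5595 ± 132 TPM in control (n = 2), 5072 ± 65.1 TPM with acetaminophen, 6086 ± 331 TPM with gentamicin, 6293 ± 214 TPM with trichloroethylene and 6212 ± 401 TPM with TCDD (n = 3 each). With TCDD the sum at 6 h thus lay above that of control, between the sums with gentamicin and with trichloroethylene.

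The TCDD libraries of 24 h did not lie equally low. The median log2 ratio of the 150 transcripts to the control mean, with 1 TPM added, was -1.80 in replicate 1, -2.24 in replicate 2 and -1.56 in replicate 3. The same median over all transcripts of the control window was -0.38, -0.65 and -0.24, so replicate 2 was lowest there too. Of the 150, 125 had their lowest value in replicate 2, 17 in replicate 1 and 7 in replicate 3. Each library alone still placed most of the set past the limit: 150 transcripts in replicates 1 and 2, and 146 in replicate 3.

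All 3 TCDD libraries of 24 h were below all 3 controls of that time for each of the 150 transcripts, and for 143 they were below all 26 other libraries. On TMM-scaled counts (CPM), every TCDD library of 24 h was below every control of that time for 150 of 150, beside 33.1% of the 15990 tested transcripts. The rule used this contrast, so nothing is read from the count. The share of all transcripts below all 26 other libraries was not counted, so nothing is read from the 143 either. The 7 exceptions each overlapped an acetaminophen library of 6 h, 3 of them also a 6 h control, 1 a 6 h TCDD library and 1 a 24 h gentamicin library. Measured against the control of 6 h, which enters the rule only through the control window, the TCDD mean at 24 h was lower for 150 of 150 transcripts, with a median log2 ratio of -1.51 (range -3.06 to -0.66, 1 TPM added) beside -0.23 over the control window. The TCDD libraries of that ratio are the ones that chose the set, so it too is a description.

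**Figure D2:**
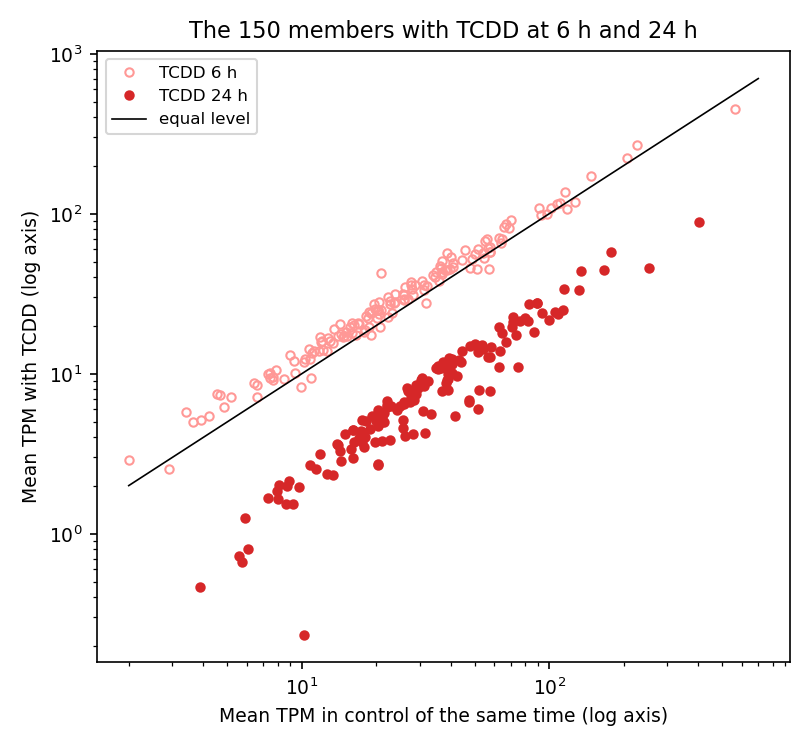
Mean TPM of each transcript with TCDD against its mean in the control of the same time, both on log axes, with open points for 6 h, filled points for 24 h and a line of equal level. Most 6 h points lie on or somewhat above the line and the 24 h points lie below it, and 1 transcript at 0 TPM with TCDD at 24 h cannot be drawn on a log axis.

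In the model fitted over all transcripts (edgeR, on TMM-scaled counts, which are not divided by length), the log2 change with TCDD at 24 h was negative for 150 of 150 transcripts with a median of -1.63, and 150 were called lower at an adjusted p under 0.05. Over all tested transcripts 33.0% were called lower in that comparison, and since the rule used it, the count supports nothing. The 2 scales differ in their centre, since all tested transcripts had a median log2 change of 0.02 in the fit and of -0.27 on log2(TPM + 1). With 1 transcript at 0 counts in every TCDD library set at its bound, the median remained -1.63.

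That transcript was 493 bases long and low everywhere. It had 0 counts in all 3 TCDD libraries of 24 h and between 5 and 17 estimated counts in the 26 others, with 4.80, 4.80 and 3.77 TPM in the controls of 24 h. Set at 3 counts in each TCDD library, it was at least 2.41-fold lower than control. A further 2 of the 150 had no count in at least 1 TCDD library of 24 h.

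The words "only by TCDD" hold for this set to the width of the rule and no further. On the scale of the fit, 45 of the 150 transcripts were called by edgeR for none of the 3 other compounds at 24 h, and 105 for at least 1 (adjusted p under 0.05), beside 83.8% of all tested transcripts called for at least 1. Taken singly, the calls over all tested transcripts came to 59.4% with acetaminophen, 59.6% with gentamicin and 40.7% with trichloroethylene. Trichloroethylene at 24 h gave 50 lower calls and 0 higher (19.9% and 20.7% of all tested), with a median log2 change of -0.23 and a range of -0.60 to 0.46. Acetaminophen at 24 h gave 44 lower and 11 higher calls (29.2% and 30.3% of all tested), with a median of -0.15. Gentamicin at 24 h gave 16 lower and 40 higher calls (30.5% and 29.1% of all tested), with a median of 0.04. The rule bounded these contrasts, so the counts describe the set: 77 of the 150 were called lower with at least 1 compound other than TCDD, beside 51.3% of all tested.

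**Figure D3:**
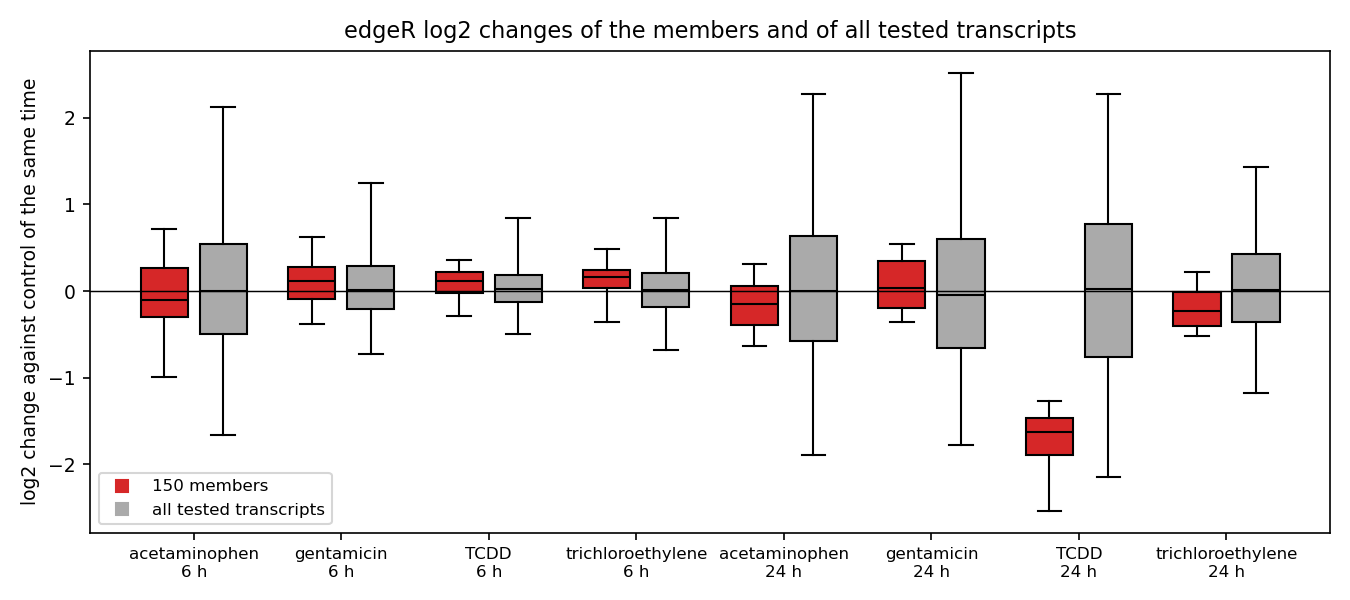
Boxes give the median and quartiles, and whiskers the 5th and 95th percentiles, of edgeR log2 changes against the control of the same time, in red for the 150 transcripts and in grey for all 15990 tested. Outside TCDD at 24 h the medians of the 150 stay between -0.23 and 0.16.

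The 6 h libraries of the compounds did not enter the rule, so they show how the same transcripts stood earlier. With TCDD at 6 h, edgeR called 0 of the 150 transcripts and 0 of the 15990 tested (0.0%). DESeq2 and limma also called 0 of the 150, beside 0.02% and 0.0% of all transcripts in their fits. At an unadjusted p under 0.05 there were 6 of the 150, beside 7.03% of all tested. The median log2 change was 0.11 with quartiles of -0.02 and 0.22 and a median SE of 0.14, and 107 of 150 values were above 0, beside 54.2% of all tested. In 51 transcripts all 3 TCDD libraries of 6 h lay above both controls and in 9 below both, beside 16.2% and 13.3% of all tested. A fall at 6 h was thus not detected in the transcripts that were low at 24 h.

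Trichloroethylene at 6 h gave a like picture. edgeR called 0 of the 150 (0.0% of all tested), and 28 had an unadjusted p under 0.05 there, beside 12.9% of all tested. DESeq2 and limma also called 0 of the 150. Their shares of all transcripts are not given here, so nothing is read from these 0 calls. The median log2 change was 0.16 with quartiles of 0.04 and 0.24, and 121 of 150 values were above 0, beside 51.9% of all tested. When only the 5 libraries of this comparison entered the fit, 7 of the 150 were called higher and 3 lower, beside 3.22% of the transcripts tested there called in either direction. TCDD and trichloroethylene share the 2 control libraries of 6 h, and so do the other compounds, so a shift of the compounds and one of these controls cannot be told apart.

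Acetaminophen had moved part of the set by 6 h. edgeR called 62 of the 150 transcripts (41.3%), 30 higher and 32 lower, beside 48.8% of all tested (24.2% higher and 24.5% lower). The share called in the set was below that of all tested transcripts, but the rule held the set within 0.5 with acetaminophen at 24 h. The part of that limit in the 6 h shares and sizes was not tested, so nothing is read from the gap. The 30 higher transcripts had a median log2 change of 0.63 (0.34 to 1.37), and the 32 lower ones of -0.56 (-2.09 to -0.24). Over all tested transcripts the medians were 0.90 in the higher and -0.79 in the lower calls. Changes beyond 2-fold were seen in 4 of the 30 and 6 of the 32, beside 40.7% of all calls in this comparison. By 24 h the same 30 transcripts had a median edgeR log2 change of 0.10 and the 32 of -0.38, where the rule holds L within 0.5. Their TCDD L at 24 h was alike, with medians of -1.93 and -1.84, beside -1.79 in the 88 that were not called.

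Gentamicin at 6 h had moved few of them, at a share near that of all tested transcripts. edgeR called 20 of the 150 (13.3%), 13 higher and 7 lower, beside 13.2% of all tested (8.34% higher and 4.88% lower). The 13 higher transcripts had log2 changes of 0.33 to 0.63, and the 7 lower ones of -1.04 to -0.29. The count rests on few libraries: it was 3 without control replicate 2 and 6 without control replicate 3 (5.35% and 5.95% of all tested), with the lone control assumed to vary like the other groups. Without gentamicin replicates 2 and 3 it was 13 and 12 (9.86% and 9.94% of all tested). It was 42 when fragment length entered the fit as a covariate (19.7% of all tested) and 13 with limma on log2(TPM + 1) (10.5% of all tested).

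ENSRNOT00000000715 shows how separate these responses could be within 1 transcript (3154 bases, rank 9 by TCDD L). In control it read 50.5 and 47.1 TPM at 6 h and 52.8, 52.8 and 51.2 TPM at 24 h. With TCDD it read 47.2, 50.2 and 59.2 TPM at 6 h and 7.53, 8.01 and 8.17 TPM at 24 h. The TCDD libraries overlapped the controls at 6 h and lay far below them at 24 h, where the edgeR log2 change was -2.34 ± 0.09 (SE). Acetaminophen at 6 h gave 111, 112 and 113 TPM, each above both controls, with a log2 change of 1.25 ± 0.10 (edgeR adjusted p = 9.4e-11). Gentamicin at 6 h gave 25.5, 25.3 and 26.8 TPM, each below both controls, a log2 change of -1.04 ± 0.09 (edgeR adjusted p = 2.5e-08). By 24 h the values with acetaminophen were 46.3, 41.8 and 51.0 TPM and with gentamicin 58.8, 65.0 and 64.8 TPM. The 2 compounds had thus changed sides of the control, by steps within the limit of the rule. With trichloroethylene it read 55.2, 57.5 and 52.1 TPM at 6 h and 55.8, 54.7 and 58.3 TPM at 24 h.

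ENSRNOT00000022695 (2441 bases, rank 101) had the smallest adjusted p of the set for a rise with acetaminophen at 6 h. Its controls read 22.9 and 22.8 TPM at 6 h and 29.3, 28.7 and 26.2 TPM at 24 h. Acetaminophen gave 56.7, 58.9 and 54.5 TPM at 6 h, with a log2 change of 1.37 ± 0.10 (edgeR adjusted p = 3.1e-11), and 39.7, 34.9 and 44.5 TPM at 24 h. All of these were above the controls of their time. Gentamicin at 6 h gave 31.0, 30.8 and 35.5 TPM, a log2 change of 0.38 ± 0.10 (edgeR adjusted p = 0.01) that did not pass without control replicate 2 (adjusted p = 0.077) or replicate 3 (0.1). TCDD gave 25.8, 25.8 and 33.8 TPM at 6 h (log2 change 0.17 ± 0.10, edgeR adjusted p = 0.71) and 7.91, 6.40 and 9.14 TPM at 24 h (log2 change -1.47 ± 0.10). The transcript thus passed from above both controls in all 3 TCDD libraries at 6 h, without a call, to below all 3 at 24 h.

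ENSRNOT00000019672 (2131 bases, rank 2) had the lowest TCDD L, -2.90, among the 146 that had 3 counts or more in all 29 libraries. It read 54.7, 57.5 and 42.4 TPM in the controls of 24 h and 5.68, 5.18 and 7.17 TPM with TCDD, a log2 change of -2.71 ± 0.10 in the fit. At 6 h the controls read 37.1 and 40.5 TPM and the TCDD libraries 41.3, 40.1 and 51.4 TPM (log2 change 0.04 ± 0.10, edgeR adjusted p = 0.93). TCDD and control overlapped at 6 h and were far apart at 24 h. Acetaminophen gave 72.4, 58.1 and 86.5 TPM at 24 h and trichloroethylene 38.3, 38.2 and 36.7 TPM, on opposite sides of the control and both without overlap.

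ENSRNOT00000026551, a short transcript of 488 bases and rank 23, had the highest control level of the set. It read 373, 359 and 477 TPM in the controls of 24 h and 75.2, 123 and 66.8 TPM with TCDD. Its spread was wide, and the fit gave a log2 change of -1.55 ± 0.26 (SE) beside an L of -2.18. At 6 h the controls read 553 and 573 TPM and the TCDD libraries 506, 440 and 401 TPM, each below both controls but with a log2 change of -0.45 ± 0.26 (edgeR adjusted p = 0.71). Acetaminophen at 6 h gave 315, 275 and 309 TPM, a log2 change of -0.80 ± 0.26 (edgeR adjusted p = 0.014), which did not pass without control replicate 2 (adjusted p = 0.058) or replicate 3 (0.06).

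**Figure D4:**
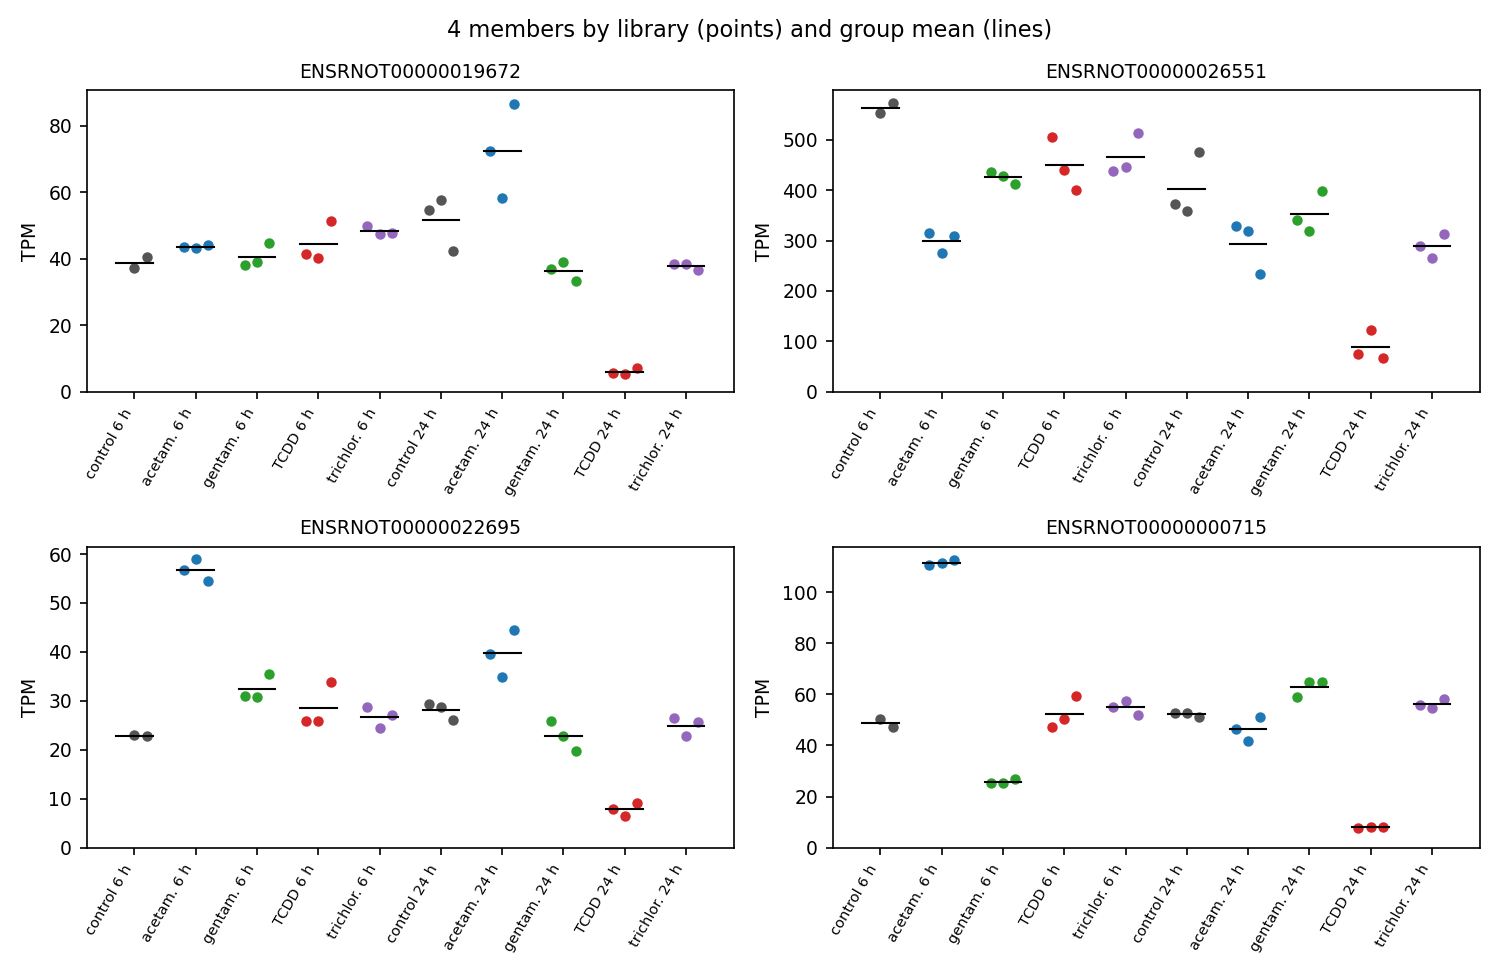
TPM in each library (points, coloured by treatment) and group means (lines) for the 4 transcripts named by identifier, with groups of 6 h on the left of each panel and groups of 24 h on the right. In each panel the 3 TCDD libraries of 24 h are the lowest of the 29.

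Length, which the rule did not use, is given as a description without a test. The transcripts were long: their median length was 3165.5 bases (quartiles 1750 and 5048), beside 1956 bases (1230 and 3072) over the 13730 transcripts of the window. Of the 150, 39 (26%) had 5000 bases or more, beside 6.99% of the window, and 19 (12.7%) had fewer than 1000, beside 17.6%. The 204 transcripts that met the rule but were not taken were alike, with a median of 3076.5 bases and 25% at 5000 or more. The 2366 that TCDD lowered by the same limit but that another compound moved past 0.5 had a median of 2087.5 bases and 12.7% at 5000 or more. Median length was thus greater in the transcripts that met the whole rule than in those that only reached the TCDD limit. These sets also differed in depth. Their median estimated count in the controls of 24 h was 660 in the 150, 511 in the 204 and 279 in the 2366, beside 224 in the window. The part of depth in the length difference was not tested.

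When the window was cut into 5 classes of near-equal size by length, 71 of the 150 transcripts (47.3%) fell in the longest class, of 3390 to 22056 bases. The other classes held 20, 15, 22 and 22 from the shortest up. The whole rule was met by 5.90% of the longest class and by 1.78%, 1.46%, 1.82% and 1.93% of the others. All transcripts of the longest class, chosen or not, had a median TCDD L of -0.78, while the classes below it stood at -0.40, -0.22, -0.17 and -0.39 from long to short. In the fit, which does not divide by length, the class medians of the log2 change with TCDD at 24 h were 0.12, 0.23, 0.15, -0.09 and -0.55 from short to long. At 6 h with TCDD the class medians rose with length, from -0.12 in the shortest class to 0.13 in the longest. In control the change from 6 h to 24 h also ran from -0.17 in the shortest class to 0.21 in the longest, so the controls of 24 h, against which every L is measured, held relatively more of long transcripts than those of 6 h.

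Fragment length also differed between TCDD and control at 24 h. Taken as length minus effective length in transcripts of 1000 bases or more, it was 230, 238 and 234 in the TCDD libraries of 24 h and 289, 277 and 270 in the controls of 24 h, with no overlap between these groups. The lowest of the other libraries was 1 of acetaminophen at 24 h, at 233 bases, inside the TCDD range. Mean fragment length at 24 h was 254 with acetaminophen, 262 with gentamicin and 255 with trichloroethylene, beside 279 in control. The longest class had a median L of 0.06, -0.19 and -0.08 with these compounds, beside -0.78 with TCDD. Fragment length was 257 and 263 in the controls of 6 h and between 250 and 278 in the TCDD libraries of 6 h. The part of fragment length or RNA quality in the choice of long transcripts was not tested. With fragment length as a covariate in the fit, the median log2 change of the 150 with TCDD at 24 h was -1.46, and 145 of the 150 were called lower, beside 24.7% of all tested. The rule used this contrast, so nothing is read from the count. The longest class stood at -0.72, -1.17 and -0.53 in TCDD replicates 1, 2 and 3 (median log2 ratio to the control mean, 1 TPM added), and it was the lowest class in each.

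**Figure D5:**
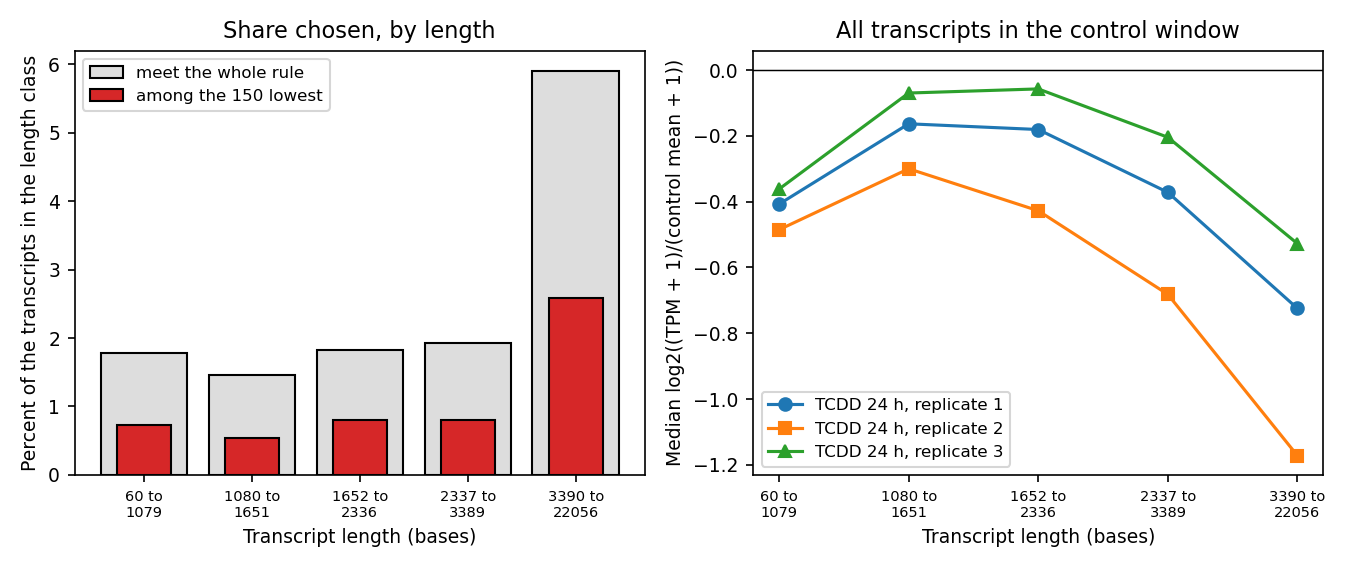
Left, the percent of each of 5 length classes of the control window that met the whole rule (grey) and that was among the 150 taken (red). Right, the median log2 ratio of all transcripts of each class to the 24 h control mean in each TCDD library of 24 h, which is lowest in the class of 3390 to 22056 bases in all 3.

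Within the set, length and the depth of the TCDD value were weakly related, as a description across transcripts that share libraries. Spearman's rho of length and TCDD L was 0.16 over the 150, which the rule had cut on TCDD L, beside -0.15 over the control window. Over the 150, that of control level and TCDD L was -0.10. The 75 longer transcripts had a median TCDD L of -1.80 at a median control level of 23.6 TPM, and the 75 shorter ones -1.87 at 37.9 TPM. At 6 h the longer ones had medians of 0.15 with TCDD and 0.19 with trichloroethylene on the scale of the fit, beside 0.04 and 0.07 in the shorter ones.

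The deposited estimated counts, as printed and with no tolerance, were whole numbers in every library for 101 of the 150 transcripts (67.3%), beside 61.3% of the control window. The 101 had a median TCDD L of -1.83 and the 49 others -1.85. Among those others, the transcripts at ranks 125 and 126, each of 453 bases, had equal mean TPM in every group. The quantification did not separate this pair, and both are in every count of the 150. Length was a multiple of 3 in 80 of the 150 (53.3%), beside 48.7% of the window.

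Control cultures themselves moved between the times. From 6 h to 24 h in control, edgeR called 41 of the 150 higher and 6 lower (12.3% and 12.6% of all tested), with a median log2 change of 0.21. A transcript whose 24 h control is high is more easily chosen by this rule, so these counts are a description and support nothing.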

How the data were processed

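Per the submitters' processing notes, the authors quantified transcripts with kallisto 0.43. Each deposited table has, by its header, the authors' estimated count and TPM value of every transcript, with length and effective length. Estimated counts were not whole in 20.1% of values. Transcript set, strand setting and trimming: not given in the sources used here. Transcripts and lists were chosen with earlier results of these data known.

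Counts were rounded and filtered with filterByExpr (minimum count 10), leaving 15990 transcripts, 150 of the 150 among them, and 99.9% of counts. edgeR 4.0.16 in R 4.3.3 fitted 1 quasi-likelihood model with TMM factors, robust dispersion and a coefficient per group (19 residual degrees of freedom). Calls used a Benjamini-Hochberg adjusted p under 0.05 over all tested transcripts. SE is the log2 change over the square root of F. No replicates were duplicates: the chi-square of a pair was 2.98 to 28.8 per degree of freedom. Gene lists planned for this work were not used, since no table names the identifiers.

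Identifiers were named by rule among those of the 150 with 3 counts or more in all 29 libraries: the lowest TCDD L, the highest control TPM, and the 2 smallest adjusted p among those higher with acetaminophen at 6 h. Alternatives were DESeq2 1.42.0, limma 3.58.1 on log2(TPM + 1), other scalings and filters, a replicate block, length corrections, fewer groups, leaving out each library, and other settings of the rule.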

Additional observations from a re-analysis of the deposited data

Results flagged for a closer look

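In 3 of the 4 transcripts named by identifier, every treated library lay on one side of the controls in TPM at 6 h and on the other side at 24 h. None of these differences between times was tested, and the 24 h side was bounded or chosen by the rule. ENSRNOT00000000715 did so with acetaminophen (edgeR log2 change of 1.25 at 6 h and -0.35 at 24 h) and, the other way round, with gentamicin (-1.04 and 0.41). ENSRNOT00000022695 did so with gentamicin (0.38 and -0.16) and with TCDD (0.17 and -1.47). ENSRNOT00000019672 did so with trichloroethylene (0.19 and -0.48). The share of all transcripts that changed sides in this way was not counted. At 6 h alone, every TCDD library lay above both controls in 16.2% of all tested and below both in 13.3% (TMM-scaled CPM). ENSRNOT00000000715 was named for its small adjusted p with acetaminophen at 6 h, so that side was chosen too.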

How the results depend on the processing

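The number of transcripts meeting the rule was 354, and 185 with TPM scaled by median ratios, 200 with TMM-scaled CPM in place of TPM, and 55 with the other compounds held within 0.25. Of the 150, 116, 101 and 19 met these. Leaving out a 24 h control or TCDD library gave 274 to 455. Of the 150, 128, 131 and 110 still met the rule without control replicates 1, 2 and 3 of 24 h. All 150 still met it without any single TCDD library of 24 h. The median length of the transcripts taken stayed between 2867.5 and 3257 bases over the 11 alternatives. Added after the data were seen, the median log2 change with TCDD at 24 h was -1.46 with the fragment length covariate and -1.86 with limma on log2(TPM + 1), and -1.72 to -1.62 in the 8 other fits, beside -1.63.

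At 6 h, gentamicin calls among the 150 were 20, and 42 with the fragment length covariate, 13 with limma and 3 to 18 without a library. Trichloroethylene calls were 0, and 10 with only the compared groups. Acetaminophen calls were 62, and 93 with only the compared groups (64.6% of all tested there), 72 with the fragment length covariate (50.8%) and 51 with limma (45.0%). Without 1 acetaminophen library they were 53 to 55 (44.6% to 45.2% of all tested). The cause of these differences was not tested. Leaving out a 6 h control leaves a lone one, so only effect sizes are given for acetaminophen there. The median log2 change of the 150 was -0.07 without control replicate 2 and -0.03 without replicate 3, beside -0.10 with both. With the replicate number as a block the counts were 60 with acetaminophen (47.7% of all tested) and 21 with gentamicin (12.3%). They were 0 with TCDD and 0 with trichloroethylene, so the block changed no count by over 1.5 times. The 2 numbers shared with the control gave correlations of deviations from the group means between -0.04 and 0.05. With 2 controls these deviations mirror each other, so this cannot settle whether equal numbers pair the samples.

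Small values without a call changed sign. With limma, ENSRNOT00000019672 stood at 0.061 with gentamicin and ENSRNOT00000000715 at 0.091 with TCDD. Without a library, ENSRNOT00000000715 ran from -0.12 to 0.015 with TCDD and from -0.014 to 0.11 with trichloroethylene, and ENSRNOT00000019672 from -0.044 to 0.10 with TCDD. Depth limits the 1 transcript at 0 counts, and 2 control libraries limit every 6 h comparison.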

Other observations

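The opposite set was small. A TCDD L of 1.2 or higher with the other 3 compounds within 0.5 was found in 21 transcripts of the control window, beside the 354 lowered ones, and their median length was 999 bases. The balance moved with the scale: it was 76 raised beside 185 lowered with TPM scaled by median ratios, and 85 beside 200 with TMM-scaled CPM. Among the 21, counts were whole in every library for 5 (23.8%), beside 67.3% of the 150 lowered transcripts.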
